A study of Mus musculus with 12 samples.

Results

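The serpin A genes described here are 10 secreted protease inhibitors and carriers made by hepatocytes: Serpina1a, Serpina1b, Serpina1c, Serpina1d, Serpina1e, Serpina3k, Serpina3m, Serpina3n, Serpina6 and Serpina10. They were taken by gene symbol from a count table of 26301 genes, and all 10 passed the filter on low counts that left 13882 genes for testing. Counts came from poly(A) RNA of 12 mouse livers and liver tumors, 4 libraries in each of 3 groups. The wild-type group held livers of adult mice labelled wild-type, and the labels do not say whether these mice carried Cre. The study describes the liver controls of its proliferation staining as littermates without Alb-Cre. The DKO group held spontaneous liver tumors of mice in which Cre under the albumin promoter (Alb-Cre), active in hepatocytes, deleted the atypical E2F repressors E2f7 and E2f8. The TKO group held spontaneous liver tumors in which Alb-Cre also deleted Rb1, the retinoblastoma gene. Per the labels the mice were adult and ageing and tissue was taken at humane end points, while the study's text also counts mice that died before that. Per its methods the mice had been bred into FVB. No wild-type tumor was analysed here, so a difference between tumors and livers cannot be told apart from one between genotypes. The question was how the level of these serpins in the tumors compared with that in wild-type liver, and how TKO compared with DKO tumors.

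Serpins inhibit proteases as decoys. The target protease cuts an exposed reactive centre loop, and the serpin then snaps shut and holds the enzyme in a covalent complex, so the residues of the loop set which protease is caught. Liver secretes most of the plasma serpins of clade A, and in the mouse the single human genes for alpha-1-antitrypsin and antichymotrypsin are each represented by several neighbouring copies. Serpina1a to Serpina1e are the alpha-1-antitrypsin copies, while Serpina3k, Serpina3m and Serpina3n belong to the antichymotrypsin copies. Human alpha-1-antitrypsin inhibits neutrophil elastase, and which proteases the single mouse copies inhibit was not measured here. Serpina6 encodes corticosteroid-binding globulin, which carries cortisol-like hormones and inhibits no protease. Serpina10 encodes the protein Z-dependent inhibitor of coagulation factor Xa.

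All 10 genes lie on chromosome 12 of mm9 (NCBI37), the build used for mapping. Serpina10 (104854885 to 104869654), Serpina6 (104884840 to 104895422) and the 5 Serpina1 genes (Serpina1b from 104966366 through Serpina1e to 105197185) are on the minus strand. Serpina3k (105576696 to 105583951), Serpina3m (105625374 to 105632467) and Serpina3n (105644939 to 105652539) are on the plus strand. The coding sequences of the 5 Serpina1 genes in GENCODE vM1, each of 1242 bases, were 96.3% to 98.5% identical, and Serpina1a and Serpina1c differed at 19 bases. Only 86 of the 1242 positions varied among the 5, and the longest stretch identical in all was 226 bases. Serpina3k and Serpina3m were 91.6% identical, Serpina3k and Serpina3n 82.7%, and Serpina3m and Serpina3n 85.2%.

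The 60-base window with the most variable positions in the Serpina1 genes held 18 of them, against a median of 3 for such windows. It lies in coding exon 4 of 4, in the part that encodes the reactive centre loop, and is shown because it is where reads can best tell the paralogs apart and where the inhibitors' targets are set. Capitals mark positions at which the 5 genes differ, and each sequence runs 5′ to 3′ on the gene's own strand (minus).
Serpina1a, chr12:105091967-105092026: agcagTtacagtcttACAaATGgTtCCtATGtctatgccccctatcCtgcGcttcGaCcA
Serpina1b, chr12:104966534-104966593: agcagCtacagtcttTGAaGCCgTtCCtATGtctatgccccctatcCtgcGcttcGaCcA
Serpina1c, chr12:105133304-105133363: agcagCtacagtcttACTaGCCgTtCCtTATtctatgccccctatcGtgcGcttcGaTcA
Serpina1d, chr12:105001972-105002031: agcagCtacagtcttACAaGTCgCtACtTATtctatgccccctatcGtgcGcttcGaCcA
Serpina1e, chr12:105185310-105185369: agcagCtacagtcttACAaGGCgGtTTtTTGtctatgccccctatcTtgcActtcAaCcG

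The same was done for the 3 Serpina3 genes, in which 257 of 1263 aligned positions varied. Their most variable 60-base window held 26 variable positions, against a median of 7, and also lies in the last coding exon over the reactive centre loop. The sequences are on the plus strand, with capitals where the 3 genes differ.
Serpina3k, chr12:105583477-105583536: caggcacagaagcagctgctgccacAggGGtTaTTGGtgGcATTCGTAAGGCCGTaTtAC
Serpina3m, chr12:105631977-105632036: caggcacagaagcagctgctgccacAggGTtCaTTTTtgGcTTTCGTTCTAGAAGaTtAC
Serpina3n, chr12:105651656-105651715: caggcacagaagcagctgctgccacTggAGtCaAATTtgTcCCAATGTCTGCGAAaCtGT

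Outside these windows most of a Serpina1 transcript does not distinguish the copies. Reads were 40 bases long. Of all 40-base windows of a reference transcript, 82.8% in Serpina1a, 78.2% in Serpina1c, 57.3% in Serpina1d, 56.2% in Serpina1b and 45.7% in Serpina1e occurred exactly in another annotated gene. The shares were 26.1% for Serpina3m, 22.9% for Serpina3k and 13.1% for Serpina3n, and no window of Serpina6 or Serpina10 was shared. Allowing 2 mismatches, only 4.54% (Serpina1c) to 15.4% (Serpina1e) of windows stayed distinct in the Serpina1 genes, and 40.6% (Serpina3m) to 65.1% (Serpina3n) in the Serpina3 genes. How reads that fit several genes were counted is not given in the sources used here, so values of single Serpina1 and Serpina3 genes are uncertain, and sums over each family are given beside them. The reference genome is of strain C57BL/6J and the mice were bred into FVB. Mouse strains are known to differ in their number of Serpina1 copies, and the part of this in the single-gene values, the shares and the sums was not tested. Reads moved between copies of a family leave its sum as it is, apart from reads shared with copies outside the 10 genes or dropped in counting.

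**Figure D1:**
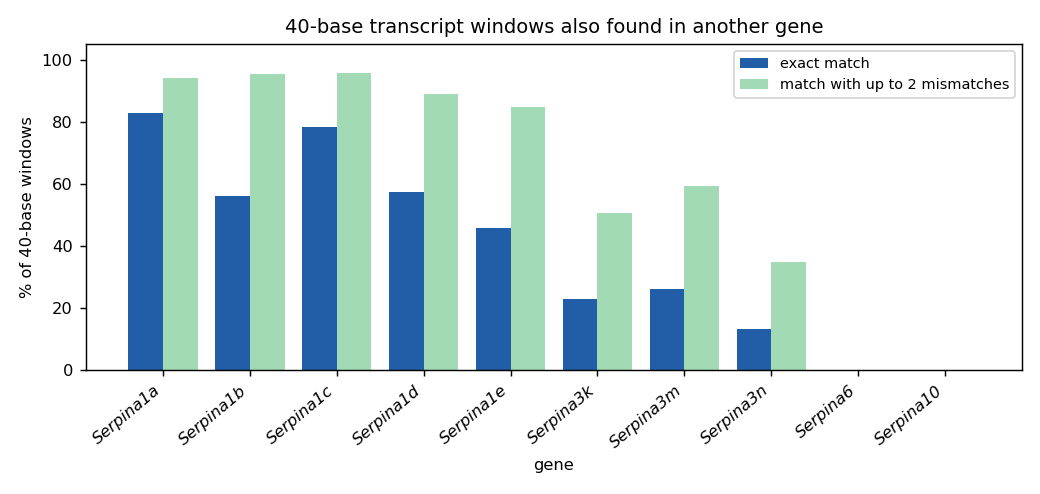
Share of each gene's 40-base transcript windows (vertical axis, percent) that occur in another annotated gene, exactly (dark bars) or with up to 2 mismatches (light bars), for the 10 genes on the horizontal axis. The 5 Serpina1 genes have exact shares of 45.7% to 82.8%, the 3 Serpina3 genes 13.1% to 26.1%, and Serpina6 and Serpina10 none.

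Promoter sequences (RefSeq, GRCm38.p6, 250 bases before to 50 after each start) were at hand for 6 of the 10 genes, the 5 Serpina1 genes and Serpina3n. A stretch of 43 bases just before the start was the same in all 5 Serpina1 genes, with 0 variable positions. In capitals is GTTAAT, the half-site bound by the liver factor HNF1.
Serpina1a to Serpina1e, shown at the Serpina1a position chr12:103863625-103863667, minus strand: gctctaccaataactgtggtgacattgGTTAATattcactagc
The half-site began 21 bases before the annotated start in Serpina1a, 26 in Serpina1b, 27 in Serpina1c, 16 in Serpina1d and 78 in Serpina1e. Searched on both strands, GTTAAT was in 2332 of 32851 promoters (7.1%) and in 5 of the 6 serpin promoters. The STAT motif TTCNNNGAA was in 8.3% of all promoters and in 0 of the 6, and the E2F motif TTTNGCGC was in 1.38% of all and in 0 of the 6. A match of letters is a description of the sequence, not a measured binding site.

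The libraries held 9165812 to 16424973 counts, and the 10 serpins took 1.14% to 6.65% of a library. Albumin (Alb), the main plasma protein of hepatocytes and the reference for this cell type, took 4.82% to 22.7%. All 10 hepatocyte marker genes on the list used were present in every group, with no marker at 0. E2f7 had 7 to 15 counts in wild-type, 4 to 24 in DKO and 9 to 14 in TKO libraries, and E2f8 had 61 to 88, 99 to 577 and 165 to 681. These counts over whole genes are not lower in the tumors and do not show whether the deleted exons were missing, so DKO and TKO stand here for the libraries so labelled. Rb1 had 43 to 77 counts in TKO libraries and 53 to 147 in the other 8, the 53 being in the shallowest library. Scaled for library size (CPM, defined below), Rb1 was at 3.21 to 5.47 in TKO and 6.52 to 11.3 in the other 8, without overlap. Its log2 fold change in TKO against wild type was -0.90 (adjusted p = 0.122 by edgeR and 0.00991 by DESeq2, both used below). Rb1 was thus lower in the libraries labelled TKO. The labels do not say that replicate numbers pair samples across groups, and p-values measure the spread between these libraries. The labels also give each library a code whose letter recurs across groups: b for wild type 1 and DKO 2, e for wild type 2, wild type 3 and TKO 1, and j for wild type 4, DKO 3 and TKO 4. DKO 1 (a), DKO 4 (k), TKO 2 (h) and TKO 3 (i) have a letter of their own. What the letter stands for is not given in the sources used here. The 2 wild-type livers with letter e were the closest pair of that group, with a chi-square per degree of freedom of 19.9 against 62.8 to 74.3 for the other pairs.

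Levels are given as CPM, a gene's share of the library's counts scaled to a common size by TMM, and as CPM per kilobase of the reference transcript (RPKM) where genes are compared with each other. In wild-type liver Serpina1c had the highest mean, 6825 ± 1076 RPKM (SD, n = 4), followed by Serpina1b at 5804 ± 1071 and Serpina1a at 5276 ± 735. These 3 overlapped each other across libraries. Serpina3k (2929 ± 663 RPKM) and Serpina1e (2681 ± 1163) came next and also overlapped. Serpina3m had 1007 ± 188 RPKM and Serpina1d 617 ± 113, without overlap. Serpina6 (395 ± 121), Serpina10 (315 ± 119) and Serpina3n (310 ± 122) were lowest, and these 3 did not differ beyond their spread.

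In the tumors the level of the alpha-1-antitrypsin genes differed from tumor to tumor far more than between the groups. The summed Serpina1 level was 30460, 32520, 34900 and 25330 CPM in wild-type livers 1 to 4. It was 57640, 48780, 32590 and 8562 CPM in DKO tumors 1 to 4, and 48340, 63990, 34050 and 6419 CPM in TKO tumors 1 to 4. In each genotype tumors 1 and 2 lay above all wild-type livers, tumor 3 lay inside the wild-type range and tumor 4 lay below it. The replicate number is only a name and ties no DKO tumor to a TKO tumor. Within letter b the level was 30460 CPM in the wild-type liver and 48780 in the DKO tumor. Within letter e it was 32520 and 34900 in the wild-type livers and 48340 in the TKO tumor. Within letter j it was 25330 in wild type, 32590 in DKO and 6419 in TKO. The highest library had 1.38 times the lowest in wild type, 6.73 times in DKO and 9.97 times in TKO.

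**Figure D2:**
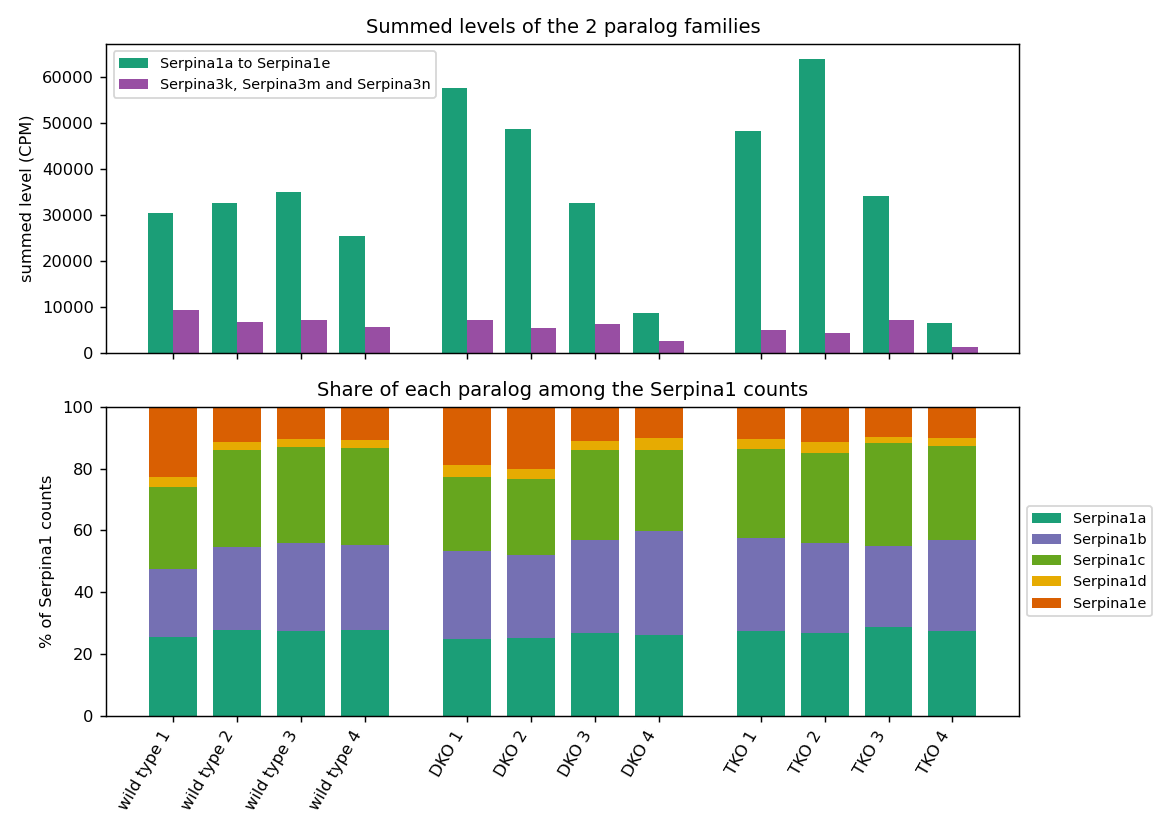
Top, summed level in CPM (vertical axis) of the 5 Serpina1 genes and of the 3 Serpina3 genes in each of the 12 libraries. Bottom, share of each paralog among the Serpina1 counts in percent. DKO 4 and TKO 4 have the lowest Serpina1 bars (8562 and 6419 CPM), and the Serpina1e share is 22.6%, 18.8% and 19.96% in wild type 1, DKO 1 and DKO 2.

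The order of the tumors was alike in the 3 most abundant copies, which share most of their sequence. Serpina1a stood at 7706, 9060, 9550 and 7048 CPM in wild-type livers, at 14230, 12200, 8766 and 2248 CPM in DKO tumors and at 13180, 17040, 9814 and 1762 CPM in TKO tumors. Serpina1b ranged over 6789 to 9932 CPM in wild type, 2881 to 16410 in DKO and 1900 to 18770 in TKO. Serpina1c ranged over 7974 to 10860, 2240 to 13960 and 1946 to 18560 CPM. In all 3 genes DKO 4 and TKO 4 were the lowest libraries of their group and lay below every wild-type liver, and DKO 1 and TKO 2 were the highest. As groups the tumors overlapped wild type on both sides.

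Serpina1d, the least abundant Serpina1 copy, had 965, 925, 925 and 627 CPM in wild type, 2181, 1649, 983 and 324 CPM in DKO, and 1669, 2423, 651 and 176 CPM in TKO. Its tumor order was that of the other copies, with TKO 3 at the low end of wild type.

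Serpina1e departed from the other copies in which libraries were high. It had 6892, 3645, 3633 and 2719 CPM in wild type, 10850, 9737, 3545 and 869 CPM in DKO, and 4977, 7188, 3286 and 636 CPM in TKO. As a share of all Serpina1 counts, Serpina1e made up 22.6% in wild type 1, 18.8% in DKO 1 and 19.96% in DKO 2. In the 9 other libraries the share was 9.65% to 11.2%. The high share thus occurred in 1 wild-type liver and 2 DKO tumors, with no value between 11.2% and 18.8%. These are the 3 libraries whose code in the labels has the letter a or b, and the 9 others have e, h, i, j or k, so the split follows the letter of the code. This split was seen after the values were known and was not tested. Serpina1a held 24.7% to 28.8% of Serpina1 counts, Serpina1b 22.3% to 33.7%, Serpina1c 24.2% to 33.4% and Serpina1d 1.91% to 3.79%.

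Serpina3k, a kallikrein-binding inhibitor, had 6299, 4424, 4956 and 3701 CPM in wild type, 4411, 3484, 4352 and 1519 CPM in DKO, and 3147, 2685, 4840 and 695 CPM in TKO. Serpina3m had 2049, 1548, 1770 and 1318 CPM, then 1590, 1155, 1413 and 571 CPM, and 1176, 946, 1845 and 252 CPM. Both were again lowest in DKO 4 and TKO 4. Unlike the Serpina1 genes, they were not above wild type in DKO 1, DKO 2, TKO 1 or TKO 2. In TKO 1 and TKO 2 both genes lay below every wild-type liver, whereas every Serpina1 copy lay above the wild-type range there, except Serpina1e in TKO 1.

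Serpina3n, an inhibitor of granzyme B that responds to inflammation, varied less. It had 1012, 578, 473 and 493 CPM in wild type, 1028, 611, 540 and 512 CPM in DKO, and 568, 708, 466 and 263 CPM in TKO. DKO 4, which was low in 7 other members, was inside the wild-type range for Serpina3n, and TKO 4 was the lowest library. The summed Serpina3 level was 9359, 6549, 7200 and 5511 CPM in wild type, 7029, 5249, 6305 and 2603 CPM in DKO, and 4890, 4339, 7151 and 1210 CPM in TKO.

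Serpina6, the corticosteroid carrier, followed another pattern. It had 385, 580, 819 and 753 CPM in wild type, 230, 1516, 1349 and 1339 CPM in DKO, and 3429, 3669, 397 and 973 CPM in TKO. The highest values were those of TKO 1 and TKO 2, and DKO 1 was below every wild-type liver although its Serpina1 level was the highest of the DKO tumors. Of the 8 tumors 6 lay above every wild-type liver, DKO 1 lay below and TKO 3 lay within the wild-type range. Serpina6 shares no 40-base window with another gene, so its values are free of the paralog limit.

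Serpina10, the inhibitor of factor Xa, varied least of the 10 between tumors. It had 791, 411, 380 and 447 CPM in wild type, 422, 351, 439 and 548 CPM in DKO, and 436, 474, 350 and 289 CPM in TKO. The groups overlapped throughout, and wild type 1 was the highest library of all 12. Serpina10 was not low in DKO 4.

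**Figure D3:**
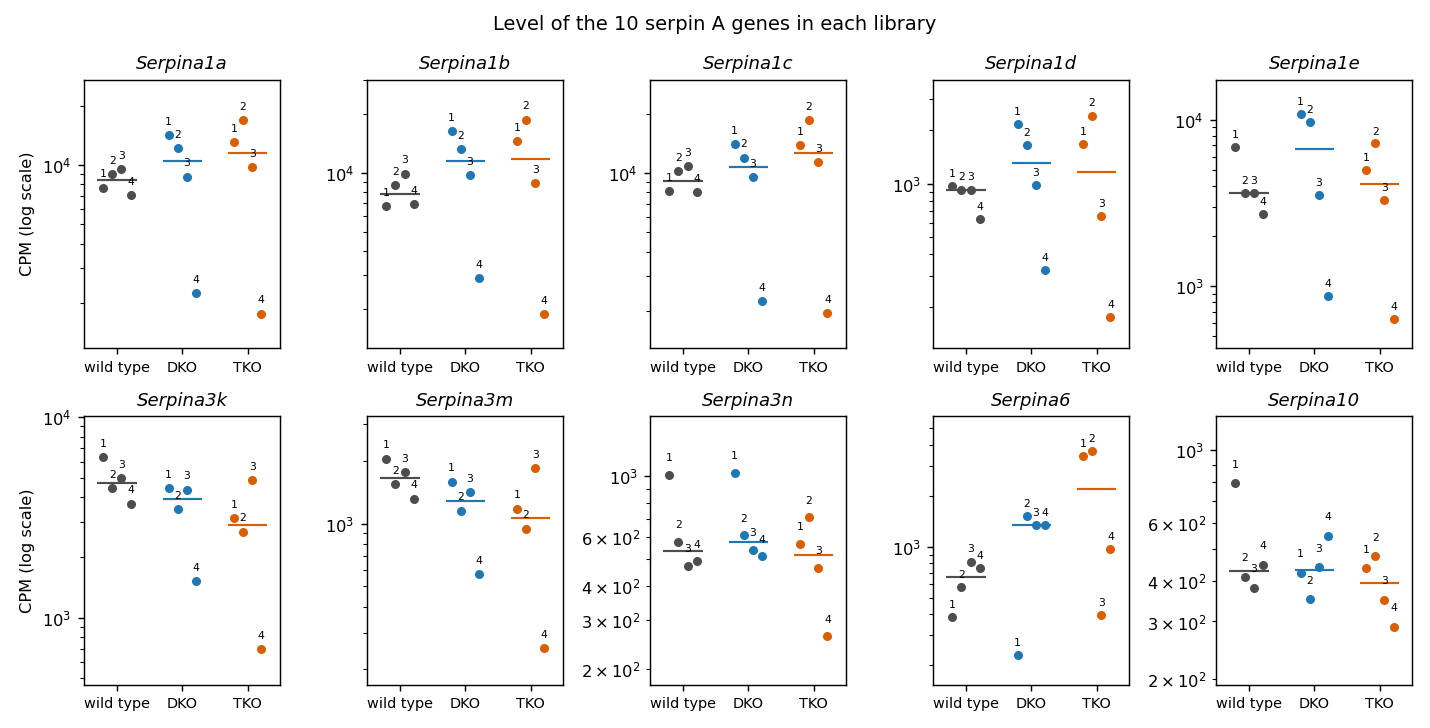
Level of each gene in CPM (vertical axis, log scale, own range in each panel) in wild-type livers (grey), DKO tumors (blue) and TKO tumors (orange). Each point is 1 library with its replicate number and the bars are group medians. Tumor 4 of each genotype is lowest for every Serpina1 gene, Serpina3k and Serpina3m, while Serpina6 is highest in TKO 1 and TKO 2 and Serpina10 spans 289 to 791 CPM.

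The question whether the group means differed was put to edgeR's quasi-likelihood test over all genes, called at an adjusted p of 0.05. In DKO against wild type 0 of the 10 serpins passed, where 2.42% of all 13882 genes did, and DESeq2 called 0 of 10, against 6.38% of its genes. The DESeq2 shares given throughout are of 23783 genes with a p-value, low-count genes included, some of which had no adjusted p. They are not like for like with edgeR's shares of 13882 filtered genes. At an unadjusted p under 0.05 the count was also 0 of 10, against 24% of all genes. In none of the 10 did the groups stand apart without overlap, against 16.2% of all genes. The median log2 fold change of the 10 was 0.12 (7 higher, 3 lower), beside 0.02 over all genes tested.

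The fitted log2 fold changes of DKO against wild type were 0.17 for Serpina1a (SE 0.640, 95% interval -1.22 to 1.56, edgeR adjusted p = 0.901), 0.39 for Serpina1b, 0.02 for Serpina1c, 0.58 for Serpina1d and 0.57 for Serpina1e. They were -0.49 for Serpina3k (interval -1.59 to 0.61), -0.50 for Serpina3m, 0.07 for Serpina3n, 0.81 for Serpina6 and -0.21 for Serpina10 (interval -0.77 to 0.36). The intervals of the Serpina1 genes thus leave room for changes in either direction of more than 1 log2 unit in Serpina1a, Serpina1b, Serpina1c and Serpina1e. The direction for Serpina1 also turns on the scale: the mean of the summed level was 36890 CPM in DKO and 30800 CPM in wild type, but the difference of mean log2 levels was -0.04.

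In TKO against wild type 0 of the 10 serpins passed edgeR's test, where 0.0864% of all genes did, and DESeq2 called 0, against 2.13% of its genes. The groups were separate in 0 of 10, against 7.67% of all genes. The median log2 fold change was 0.12 (5 higher, 5 lower), beside 0.02 over all genes. Serpina6 had a log2 fold change of 1.74 (SE 0.684, interval 0.25 to 3.23) with an unadjusted p of 0.0255 and an edgeR adjusted p of 0.240. It was the 1 serpin with an unadjusted p under 0.05, a level that 16.3% of all genes reached. Across the other settings its log2 fold change was 1.33 to 2.08 and its adjusted p 0.0949 to 0.497, and 3 of 4 TKO tumors lay above every wild-type liver. The others were 0.33 for Serpina1a, 0.45 for Serpina1b, 0.30 for Serpina1c, 0.52 for Serpina1d, -0.07 for Serpina1e, -0.77 for Serpina3k, -0.66 for Serpina3m, -0.35 for Serpina3n and -0.39 for Serpina10. For Serpina1 the direction turned on the scale here too. The mean of the summed level was 38200 CPM in TKO and 30800 CPM in wild type, but the difference of mean log2 levels was -0.093.

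Between TKO and DKO tumors, the comparison that bears on the added Rb1 deletion, 0 of the 10 serpins passed edgeR's test and 0 of all genes did (0%). DESeq2 called 0 of the 10, against 0.235% of its genes. At an unadjusted p under 0.05 the count was 0 of 10, against 9% of all genes, and the groups were separate in 0 of 10, against 4.87%. The fold changes ran from -0.64 for Serpina1e to 0.93 for Serpina6 (interval -0.52 to 2.39) on the log2 scale, with a median of -0.11 beside 0.01 over all genes. For each gene the fit shared 1 estimate of spread over all 12 libraries, wild-type livers included. For genes with less spread in wild type, the intervals between tumors may therefore be too narrow. Serpina1a, for example, had an SD of log2 CPM of 0.20 in wild type, 1.21 in DKO and 1.48 in TKO. The 3 comparisons share libraries, so they are not independent of each other.

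With the code letter as a block in edgeR, an alternative chosen after the values were seen, 0 of the 10 serpins passed in each comparison. Libraries with a letter of their own then carry no weight. The tumors left were DKO 2, DKO 3, TKO 1 and TKO 4. TKO 4 had the lowest summed Serpina1 level (6419 CPM), and TKO 2, with the highest (63990 CPM), carried no weight. The turn below thus rests on few libraries. The Serpina1 genes turned to lower in TKO, with -0.48 for Serpina1a, -0.34 for Serpina1b, -0.56 for Serpina1c and -0.21 for Serpina1d against wild type. Against DKO, Serpina1a was at -1.27, Serpina1b at -1.36, Serpina1c at -1.27, Serpina6 at -0.034 and Serpina10 at 0.091. Serpina6 in TKO against wild type stayed at 1.57 (adjusted p = 0.169). In DKO against wild type Serpina3k turned to 0.032 and Serpina3n to -0.092.

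**Figure D4:**
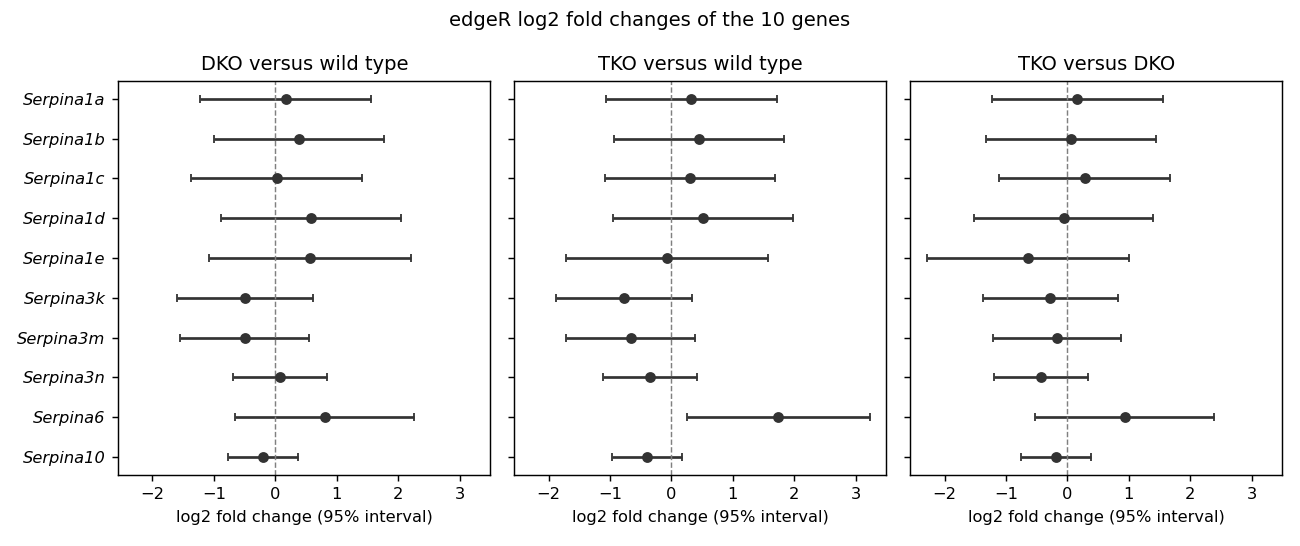
edgeR log2 fold change (horizontal axis) of each gene with its 95% interval for DKO against wild type, TKO against wild type and TKO against DKO, 4 libraries a group. Every interval crosses 0 except that of Serpina6 in TKO against wild type (0.25 to 3.23), whose adjusted p was 0.240.

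The spread between tumors was measured as the SD of log2 CPM within a group. For Serpina1a it was 0.20 in wild type, 1.21 in DKO and 1.48 in TKO. Among 1283 genes with a mean of at least 100 CPM, these SDs stood at percentiles 35.2, 94.0 and 96.9, and the medians of such genes were 0.26, 0.29 and 0.36. The other Serpina1 genes had SDs of 1.12 to 1.69 in DKO and 1.47 to 1.69 in TKO. Serpina6 had 0.49, 1.30 and 1.54 in the 3 groups, and Serpina3k 0.32, 0.73 and 1.21. Serpina3n (0.51, 0.46 and 0.61) and Serpina10 (0.48, 0.26 and 0.32) had smaller SDs in the tumors than the other 8 genes. For Alb the SDs were 0.39, 0.68 and 1.12.

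**Figure D5:**
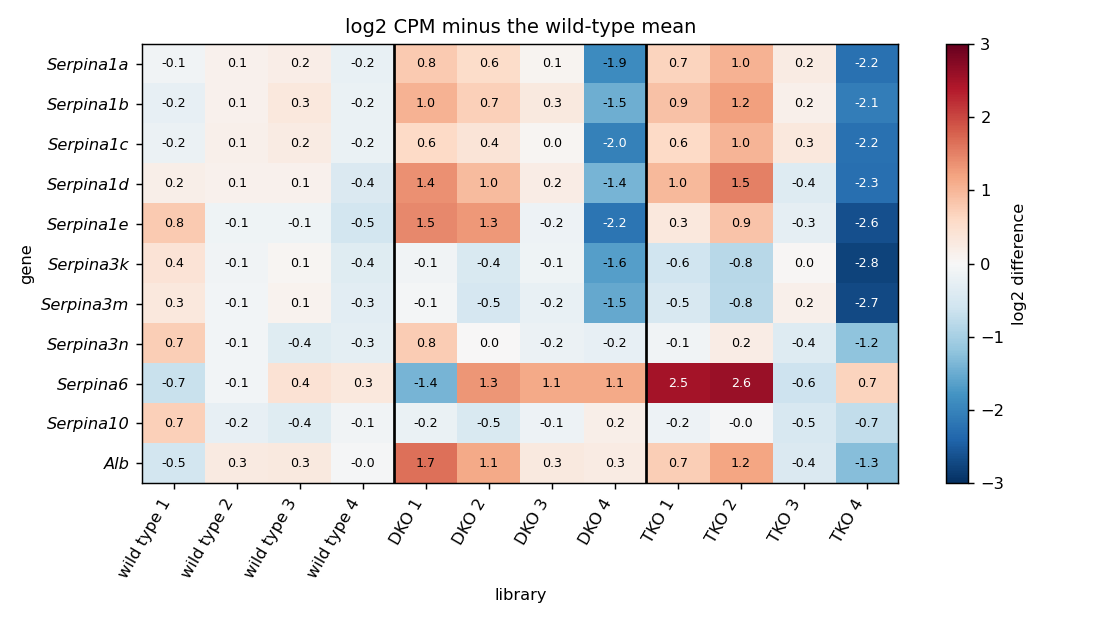
log2 CPM of each gene (rows) in each library (columns) minus the gene's mean over the wild-type livers, with the value in each cell. Red is above and blue below wild type, and black lines divide wild type, DKO and TKO. The columns of DKO 4 and TKO 4 are blue for the Serpina1 genes, Serpina3k and Serpina3m, and Alb is low in TKO 4 but not in DKO 4.

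Since the tissue is bulk, fewer hepatocytes and less serpin RNA per hepatocyte cannot be told apart. Set against albumin, DKO 4 and TKO 4 differed. Alb was at 62570 to 111200 CPM in wild type, at 108800 CPM in DKO 4 and at 37570 CPM in TKO 4. There were 48.7, 29.5, 31.4 and 28.3 Serpina1 counts per 100 Alb counts in wild type, 20.1, 24.2, 29.2 and 7.87 in DKO, and 31.8, 31.0, 50.8 and 17.1 in TKO. DKO 4 thus had a wild-type level of Alb with the lowest Serpina1 count relative to it, and in TKO 4 both were low. The high Serpina1 levels of TKO 1 and TKO 2 came with high Alb (152100 and 206300 CPM), at a ratio within the wild-type range. Those of DKO 1 and DKO 2 also came with high Alb (286300 and 201700 CPM), but at ratios of 20.1 and 24.2, below every wild-type liver.

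Serpina3 counts per 100 Alb counts were 14.96, 5.94, 6.48 and 6.15 in wild type, 2.46, 2.60, 5.65 and 2.39 in DKO, and 3.22, 2.10, 10.7 and 3.22 in TKO. All 4 DKO tumors were below all 4 wild-type livers, with means of 3.27 and 8.38, while TKO overlapped wild type through TKO 3. For Serpina6 the ratio had means of 0.680 in wild type, 0.818 in DKO and 1.80 in TKO, with overlap. These ratios are descriptions without a test, and Alb itself was higher on average in DKO (177100 CPM) than in wild type (93440 CPM).

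Markers of other cells were summed beside these values. In DKO 4 and TKO 4 the 10 macrophage markers summed to 113 and 189 CPM, against 266 to 657 in wild type. The 8 endothelial markers gave 194 and 186 CPM (wild type 138 to 222), the 8 stellate and fibroblast markers 168 and 321 (250 to 422) and the 6 biliary markers 24.8 and 39.9 (28.6 to 50.0). The 10 neutrophil and lymphocyte markers gave 11.6 and 14.9 CPM (12.3 to 28.4). None of these sums was above its wild-type range in either tumor, but single markers were. In DKO 4 the endothelial genes Pecam1 and Cdh5 were at 69.5 and 61.4 CPM, against at most 22.2 and 33.4 in wild type. Clec4g and Oit3, of sinusoidal endothelium, were at 2.06 and 1.24 CPM there, against at least 32.6 and 10.8. The macrophage gene Cd68 was at 25.2 CPM in DKO 4 and 23.2 in TKO 4, against at most 17.2. In TKO 4 the endothelial genes Pecam1 (32.7 CPM), Cdh5 (33.5) and Lyve1 (7.01, against at most 2.78) were also above every wild-type liver. So were Col3a1 and Pdgfrb (19.5, against at most 13.8) of stellate cells and fibroblasts. The biliary genes Krt19 and Epcam were at 6.19 and 10.7 CPM there, against at most 3.93 and 9.20. Other markers, such as Clec4g (13.3 CPM) and the macrophage gene Clec4f (28.3), lay below every wild-type liver in TKO 4. The 10 hepatocyte markers summed to 173000 CPM in DKO 4, within the wild-type range of 120000 to 181000. In TKO 4 they summed to 78500 CPM, below it. Alb, Apoa1, Trf, Fgb, Cps1, Pck1 and Ass1 were each below every wild-type liver in TKO 4. Ttr (3100 CPM) and Apob (2850) lay within their wild-type ranges there, and Cyp2e1 was at 12000 CPM, against at most 11800 in wild type. Most of the DKO 4 sum was Alb (109000 CPM). Cps1, Pck1 and Ass1 were at 810, 62.8 and 216 CPM in DKO 4, against at least 2850, 795 and 1060 in wild type. Trf (transferrin) was at 33700 CPM, against at most 33500, and the remaining hepatocyte markers lay within their wild-type ranges in DKO 4. No tested gene of these 6 marker lists was called in any comparison by edgeR, and none was at 0 throughout a group. DESeq2 called 2 endothelial markers higher in DKO, Pecam1 (adjusted p = 0.0130) and Lyve1 (0.0315), and 1 hepatocyte marker lower, Ttr (0.0491). Over all genes it called 6.38% in DKO, in either direction. The part of cell makeup in the serpin levels was not tested beyond these values.

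The genes whose pattern over the 12 libraries was nearest to a serpin were found by the root mean square difference of centred log2 CPM among 7855 genes with a mean of at least 10 CPM, as a description. Nearest to Serpina1c outside the 10 genes were Uroc1 (0.40), which degrades the histidine product urocanate, Hgfac (0.45), the activator of hepatocyte growth factor, and Ftcd (0.46), a folate enzyme of histidine breakdown. Alb lay at 0.75. The copies Serpina1a and Serpina1b lay at 0.08 and 0.20 and share most of their windows with other Serpina1 genes. Nearest to Serpina3k were Serpina3f (0.19), Igf1 (0.24), the growth hormone-dependent growth factor, and Serpina3j (0.27). Nearest to Serpina6 were Fads2 (0.74), 1700001L05Rik (0.78) and Fkbp11 (0.78), so that no gene was close to it. Among the genes nearest to Serpina3n were Iigp1 (0.26), an interferon-induced GTPase, and Stat3 (0.26), the transcription factor of IL-6 signalling. Serpina10 lay nearest to Heatr1 (0.22), Wasl (0.22) and Akirin1 (0.23).

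Other clade A serpins, most of them further Serpina3 copies that may share reads with the 10, leaned down. Of 15 listed, 14 were tested and 0 called by edgeR in DKO, with 12 lower and 2 higher and a median log2 fold change of -0.34. In TKO 13 were lower and 1 higher (median -0.34, 0 called by edgeR). DESeq2 called 1 lower in DKO and 2 lower in TKO, Serpina3b (adjusted p = 0.0484) and Serpina5 (0.0442). Over all genes it called 6.38% in DKO and 2.13% in TKO, in either direction. Genes named below for a DESeq2 call alone, like Serpina5, were chosen after their values were seen. Serpina3b was lowest in DKO, with 33.3, 32.8, 35.7 and 17.9 CPM in wild type, 7.28, 6.57, 14.4 and 7.72 in DKO and 13.4, 7.96, 17.2 and 1.87 in TKO. Every tumor was below every wild-type liver, yet its log2 fold change in DKO of -1.73 (SE 0.4996) had an edgeR adjusted p of 0.0752, and DESeq2 gave 0.0120. Serpina12 (vaspin, an adipokine) was highest in DKO, at 0.53 (adjusted p = 0.727), with 9.37 to 372 CPM across the DKO tumors.

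Of 12 proteases and ligand partners, 9 were tested and 0 called by edgeR in DKO (3 higher, 6 lower) or TKO (0 higher, 9 lower). Klkb1, plasma prekallikrein, had 252 to 366 CPM in wild type and 186 to 215 in DKO (log2 fold change -0.68, edgeR adjusted p = 0.0806), and DESeq2 called it in DKO (adjusted p = 0.0189, range over the alternatives 0.0189 to 0.455). Prtn3, a neutrophil elastase relative, was at 0.123 to 7.13 CPM in wild type and DKO (1.09, adjusted p = 0.609). Wild type 1 was at 6.60 CPM and the 3 other wild-type livers at 0.123 to 0.203, and without wild type 1 the log2 fold change was 4.50 (adjusted p = 0.0709).

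Of 15 hepatocyte transcription factors, all tested, 1 was called by edgeR in DKO, where 2.42% of all genes were. DESeq2 called 3 lower, Nr1h4, Cebpa (adjusted p = 0.0265) and Cebpb (0.0146), where it called 6.38% of all genes. Nr1h4, the bile acid receptor FXR, had 109, 146, 148 and 118 CPM in wild type, 76.8, 65.0, 93.1 and 53.9 in DKO, and 88.5, 88.3, 107 and 81.7 in TKO. It fell by 0.85 on the log2 scale in DKO (SE 0.179, edgeR adjusted p = 0.0425), lower in 4 of 4 tumors. All TKO tumors were below wild type too, at -0.51 (adjusted p = 0.199). The DKO call was lost without wild type 2, 3 or 4 (adjusted p of 0.134, 0.131 and 0.0657), without DKO 1, 2 or 4 (0.0960, 0.105 and 0.0718), without TKO 1 (0.0535) and with the code letter as a block (0.326), with a range of 0.000971 to 0.326 over all alternatives.

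Of 16 acute-phase genes, all tested, 0 were called by edgeR, with 7 higher and 9 lower in DKO (median -0.05) and 2 higher and 14 lower in TKO (median -0.40). Lcn2 was highest in DKO at 0.73 (adjusted p = 0.648) and Saa3 lowest at -2.83 (adjusted p = 0.0643), with 7.13 to 107 CPM in wild type and 3.53 to 6.66 CPM in DKO. Without wild type 4, at 107 CPM, its log2 fold change was -1.32. DESeq2 called Saa3 lower in DKO (adjusted p = 0.00179), and 4 genes lower in TKO, Saa1 (0.0423), Saa3 (0.0241), Orm1 (0.0432) and Orm2 (0.0165). Over all genes, in either direction, DESeq2 called 6.38% in DKO and 2.13% in TKO. Of 14 genes of folding and export in the endoplasmic reticulum, through which serpins are secreted, 0 were called by edgeR, with 11 higher in DKO (median 0.23) and 6 higher in TKO (median -0.05). The chaperone Hspa5 was highest in DKO at 0.62 (adjusted p = 0.196) and Edem2 lowest at -0.07, and DESeq2 called 1, Man1b1, higher in DKO (adjusted p = 0.0273). Of 14 growth hormone-dependent and sex-biased liver genes 0 were called by edgeR, with 11 lower in DKO (median -0.87) and 11 lower in TKO (median -0.65). Mup3 was lowest at -1.99 in DKO (adjusted p = 0.131), with 4080 to 6550 CPM in wild type and 217 to 2790 CPM in DKO. DESeq2 called 3 lower in DKO, Mup3 (adjusted p = 0.0313), Igfals (0.0383) and Cish (0.0226), where it called 6.38% of all genes. Sult3a1 was highest at 4.69 (adjusted p = 0.0916), through DKO 4 at 480 CPM, where all other libraries had 1.07 to 10.5 CPM.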

How the data were processed

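Poly(A) RNA of 12 libraries was sequenced on a SOLiD 5500W instrument as 40-base reads, and per the study's methods the authors mapped the reads to mm9 (NCBI37) with BWA and made gene counts with featureCounts. Tool versions, whether strand was used in counting, and what was done with reads fitting several genes are not given in the sources used here. The deposited values are raw counts per Entrez gene, with 9165812 to 16424973 per library. Symbols came from a RefSeq table (GRCm38.p6), which matched 24191 of 26301 IDs.

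Groups were taken from the labels. Counts were scaled by TMM, filtered by filterByExpr and tested with edgeR 4.0.16 (quasi-likelihood, 1 mean per group, 12 libraries, Benjamini-Hochberg adjustment over 13882 genes, threshold 0.05) in R 4.3.3. DESeq2 1.42.0, limma 3.58.1 (voom with quality weights), other scalings and filters, a replicate block and leaving out each library were alternatives. The study's methods used DESeq2. Tested on simulated data for DKO against wild type (13882 genes, 200 changed by a log2 of 2), the script recovered 95% with 5.94% false calls.

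RPKM used the length of the reference transcript in GENCODE vM1 (NCBIM37), and log2 CPM a prior count of 2. Windows of 40 bases were compared with all annotated protein-coding transcripts. The correlations of same-numbered libraries' deviations were -0.17 to 0.05 between wild type and DKO, -0.12 to 0.22 between wild type and TKO and -0.01 to 0.37 between DKO and TKO. They were not all above 0.1 in any comparison, so the numbers were not taken as pairs. A block of the letter in the libraries' codes was added after the values were seen. Library pairs within groups differed beyond sampling noise.

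The members and lists were chosen with earlier results of these data known. Named genes were the 10 members, and from each other list those called against wild type or else the highest and the lowest fold change in DKO. From a list with a called gene up to 4 called genes were named. Alb, E2f7, E2f8 and Rb1 served as checks. Nearest genes were the 3 closest to each of 5 members. The sex-linked check genes (4 of 5 tested, 0 called) showed all 12 libraries to be of male pattern. A list of other plasma serpins and a gene near Serpina3n are not reported here.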

Additional observations from a re-analysis of the deposited data

Results flagged for a closer look

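In 54 groups of 4 libraries (each member, the family sums, the Serpina1 shares and the ratio of Serpina1 to Alb, all on the log2 scale), 4 held a library whose gap to its nearest neighbour passed Dixon's 95% critical value, where chance flags about 1 in 20. Serpina1d in wild type 4 (627 CPM) lay below the 3 other wild-type livers, with a gap of 0.901 of the range. Serpina6 in DKO 1 (230 CPM) lay below the other 3 DKO tumors, which were at 1339 to 1516 CPM, with a gap of 0.934. Wild type 1 had the lowest Serpina1c share of Serpina1 counts (26.6%, gap 0.929) and the highest Serpina1e share (22.6%, gap 0.905) of its group. The latter 2 values come from the same library and the same sum, so they are not separate findings.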

How the results depend on the processing

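The count of members called was 0 in all 3 comparisons under every alternative run (36 values, and 36 with 1 library left out, range 0 to 0). With the replicate block it was also 0, and the block changed no member's call, and the numbers were not taken as pairs: in 3 of 12 same-numbered pairs the best match in the other group had the same number. Under the alternatives that left out no library, 338 fold changes of members kept their direction and 22 did not, and the cause of the reversals was not tested. With the replicate block, DKO against wild type was -0.23 for Serpina1a, -0.37 for Serpina1c, -0.0041 for Serpina1e and -0.41 for Serpina12. TKO against wild type was -0.13 for Serpina1a, -0.013 for Serpina1b, -0.15 for Serpina1c and -0.073 for Serpina1d, and TKO against DKO was -0.027 for Serpina1b. The code letter as a block, chosen after the data were seen, left DKO 2, DKO 3, TKO 1 and TKO 4 as the only tumors with weight. With this block DKO against wild type was 0.032 for Serpina3k, -0.092 for Serpina3n and -1.66 for Lcn2. TKO against wild type was then -0.48 for Serpina1a, -0.34 for Serpina1b, -0.56 for Serpina1c and -0.21 for Serpina1d, and TKO against DKO was -1.27 for Serpina1a, -1.36 for Serpina1b, -1.27 for Serpina1c, -0.034 for Serpina6 and 0.091 for Serpina10. Under voom, Serpina1c was -0.035 in DKO, and Serpina1b was -0.10 in TKO against DKO. With total counts as scaling, Serpina1d was 0.017 in TKO against DKO and Edem2 0.0014 in DKO. With 1 library left out, the DKO fold changes ran from -0.12 to 0.49 for Serpina1a, -0.24 to 0.35 for Serpina1c, -0.22 to 0.39 for Serpina3n, -0.33 to 0.091 for Serpina10, -0.28 to 0.93 for Serpina12, -0.18 to 0.025 for Edem2 and -0.81 to 1.16 for Lcn2. The TKO ones ran from -0.016 to 0.67 for Serpina1a, -0.034 to 0.65 for Serpina1c, -0.049 to 0.87 for Serpina1d and -0.51 to 0.28 for Serpina1e. TKO against DKO ran from -0.18 to 0.51 for Serpina1a, -0.32 to 0.41 for Serpina1b, -0.054 to 0.63 for Serpina1c, -0.63 to 0.32 for Serpina1d, -0.66 to 0.047 for Serpina3k and -0.58 to 0.16 for Serpina3m.

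Counts over all genes moved more. They were 336, 12 and 0 in the 3 comparisons, 1518, 507 and 56 by DESeq2, 1804, 97 and 0 by voom, 509, 1 and 0 with the replicate block, 0, 44 and 0 with the letter block, 59, 9 and 0 with total counts, and 0 in DKO without wild type 2. The fall of Nr1h4 was not called with total counts (adjusted p = 0.0764). Of the 3 nearest genes, 1 was kept for Serpina6 and 2 for Serpina1c when genes from 1 CPM were included. A fit with sex as a covariate was planned and could not be made, since all libraries were of male pattern.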
